A study of Drosophila melanogaster and Drosophila simulans with 21 samples.

Results

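The genes described here encode 4 proteins of the signalling chain that Drosophila photoreceptors use to answer light: Galphaq (CG17759), rdgA (CG42667), inaE (CG33174) and Cds (CG7962). They were chosen by name, as the probe positions annotated to a Gq alpha subunit, a diacylglycerol kinase, a diacylglycerol lipase and a CDP-diacylglycerol synthase. That gave 4 of the 1778 genes with a name on the array, and 6 probe positions, since Galphaq and rdgA have 2 each. All 4 had enough values to be tested, among 1384 named genes and 4753 genes and unnamed positions in all. In the Release 6 plus ISO1 MT assembly, which was used for names only, rdgA and inaE lie on the X chromosome, Galphaq on arm 2R and Cds on arm 3L.

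In the fly eye, light turns rhodopsin into its active form, which loads GTP onto the Gq alpha subunit. Gq alpha then switches on a phospholipase C that splits the membrane lipid phosphatidylinositol bisphosphate and leaves diacylglycerol in the membrane, and the TRP and TRPL channels open. Diacylglycerol kinase (rdgA) converts diacylglycerol to phosphatidic acid, CDP-diacylglycerol synthase (Cds) carries phosphatidic acid back towards phosphatidylinositol, and diacylglycerol lipase (inaE) cuts diacylglycerol into monoacylglycerol and a free fatty acid. Mutants of rdgA lose their photoreceptors. None of the 4 genes is used by photoreceptors alone, because Gq signalling and diacylglycerol turnover also serve other cells of the fly.

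RNA came from adult virgin females of 3 kinds: F1 hybrid daughters of D. melanogaster Canton S mothers and D. simulans Sim-1 fathers, pure D. simulans Sim-1, and pure D. melanogaster Canton S. Stocks lived at 25 C, while 7 to 8 males and as many females were crossed at 18 C, and the females were frozen after 5 to 6 days of separate storage. Extracts from 2 cohorts were mixed into 1 RNA pool per strain. Spotted cDNA arrays with 2 channels compared the pools, with 6 arrays per pair (3 in each channel orientation) and 3 further arrays on which both channels held 1 and the same RNA.

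Because each kind of female is 1 pool, the 6 arrays of a pair are technical repeats, every p-value covers the spread between arrays only, and a difference between kinds of females and one between their pools cannot be told apart. The labels name adult females and no dissected tissue, so more cells of a type and more RNA per cell cannot be told apart either. Every array held 4657 to 4946 values. Replicate 2 of D. simulans with D. melanogaster correlated at 0.481 with the mean of the other 5 arrays of its pair across positions, against 0.712 to 0.883 for the rest of that pair.

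Which channel stands above the line in the deposited ratios is not stated in the labels. Arrays with swapped channels correlated between -0.930 and -0.455, and the 3 pairs close to a loop with an SD of 0.206 log2 units against 0.868 when the pair of parents is turned, so the directions of the 3 pairs relative to each other are settled and the overall sign is not. Signs below take channel 1 over channel 2. This reading was adopted with the data in view: in it the hybrid, a female known for poorly developed ovaries, had lower values than the parental mean for 4 of 5 measured ovary and germline markers. Against D. simulans 3 of 5 were lower. There c(3)G, at 0.14, was not told apart from D. simulans, and ovo differed from neither parent. In the opposite reading every higher becomes lower and every lower becomes higher, while sizes, counts, errors and p-values stay as they are. Values are log2 ratios centred on the median position of each array, so higher and lower are relative to that median.

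In the adopted reading, Galphaq, Cds and rdgA had higher values in hybrid females than in both parents, while inaE did not. For rdgA this was called on the mean of its positions and did not hold for position A alone. Against the parental mean the hybrid stood higher by 1.13 ± 0.10 for Galphaq (fitted log2 difference ± SE, 2.19-fold), by 0.87 ± 0.08 for Cds (1.83-fold) and by 0.54 ± 0.08 for rdgA (1.45-fold). For inaE it was lower by a small amount, at -0.16 ± 0.06 (1.11-fold). Galphaq, Cds and rdgA showed no difference between the parents past the threshold, whereas inaE was lower in D. simulans than in D. melanogaster. For inaE the hybrid was not told apart from D. simulans in the main fit (0.00, confidence interval from -0.15 to 0.15). This contrast depended on the setting. It was -0.13 without centring, and 0.16 on the arrays with title numbers 14 to 18, which are described below.

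Hybrid females thus lay above both parents for 3 of the 4 genes, where above means that both hybrid contrasts passed an adjusted p of 0.05 with a positive sign. Over all 4753 tested genes and positions the same held for 36.0%, with 36.2% below both parents and 72.2% outside both on either side. The hybrid differed from D. melanogaster for 4 of 4 genes, 3 higher and 1 lower, where 83.8% of all tested differed (42.0% higher, 41.8% lower). It differed from D. simulans for 3 of 4, all higher, where 82.2% of all tested differed (41.5% higher, 40.8% lower). The parents differed for 1 of 4, lower in D. simulans, where 46.8% of all tested differed (23.2% higher, 23.5% lower). Against the parental mean 4 of 4 differed, where 85.3% of all tested did (43.0% higher, 42.3% lower). Shares of 4 genes move in steps too coarse to be set apart from these. In size, the Galphaq difference from the parental mean was exceeded by 21.9% of all tested genes, that of Cds by 34.0%, that of rdgA by 57.3% and that of inaE by 86.8%. Differences of the size seen for rdgA were thus common in the hybrid, and that of inaE was smaller than most.

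**Figure D1:**
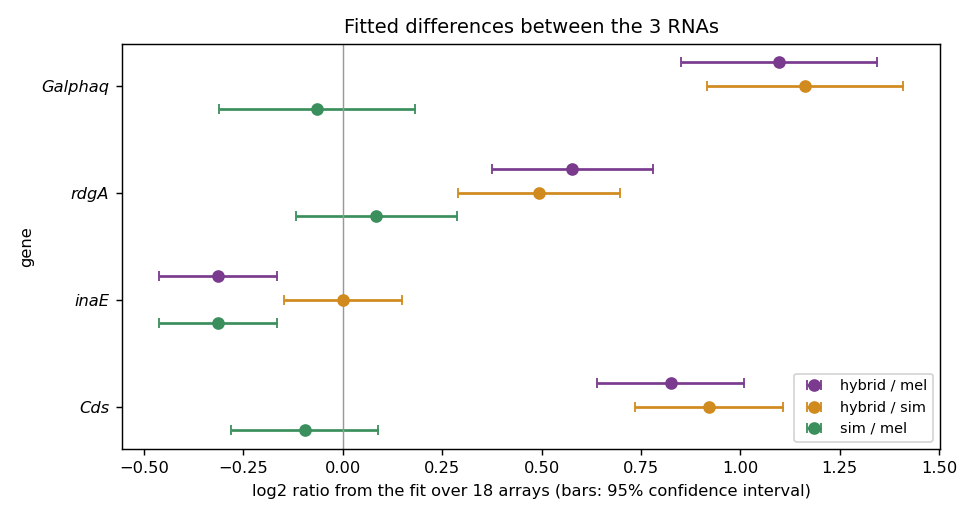
Fitted log2 differences between the RNAs (x axis; points are estimates of the linear model over 18 arrays, bars are 95% confidence intervals) for each gene (y axis), with hybrid over D. melanogaster, hybrid over D. simulans and D. simulans over D. melanogaster in different colours, in the adopted reading of the sign. Both hybrid contrasts of Galphaq, rdgA and Cds lie right of 0 with parental contrasts across 0, while for inaE the hybrid to D. simulans contrast is at 0 and the other 2 are equally negative.

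Galphaq encodes the alpha subunit that carries the signal from rhodopsin to phospholipase C. On the 6 arrays of hybrid with D. melanogaster its log2 ratio ran from 0.45 to 1.55 with a median of 1.11, and on the 6 arrays of hybrid with D. simulans from -0.19 to 2.06 with a median of 1.11. On the arrays of D. simulans with D. melanogaster it ran from -0.38 to 0.39 with a median of -0.14. All but 1 of the 12 hybrid arrays were above 0. The exception was replicate 4 of the pair with D. simulans. Every array of hybrid with D. melanogaster lay above the highest array of the parents. The share of all tested genes with such a separation was not counted, and 36.0% lay above both parents in the fit.

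The fit gave 1.10 ± 0.12 for Galphaq in hybrid over D. melanogaster (2.14-fold, adjusted p = 3.67e-08) and 1.16 ± 0.12 in hybrid over D. simulans (2.24-fold, adjusted p = 1.69e-08), both in the adopted reading. Between the parents it gave -0.07 (D. simulans over D. melanogaster), with a 95% interval from -0.31 to 0.18 and an adjusted p of 0.674. An exact sign-flip test over the 6 direct arrays gave p = 0.0312 against D. melanogaster and 0.0625 against D. simulans, where 1 array had the opposite sign. Both parental levels therefore stood below the hybrid, and their order relative to each other was not resolved.

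Galphaq also differed between channels by more than the other 3 genes. On the same-RNA arrays, where the strains cannot differ, its log2 ratio of channel 1 over channel 2 was -0.56 with hybrid RNA, -0.52 with D. simulans RNA and -0.51 with D. melanogaster RNA. The fitted channel term was -0.36, exceeded in size by 1.16% of all tested genes, whose median size was 0.0808. Accordingly, hybrid over D. melanogaster averaged 0.83 with hybrid RNA in channel 1 and 1.41 with it in channel 2 (3 arrays each), and hybrid over D. simulans averaged 0.58 and 1.71. The contrast stayed above 0 in both orientations. Each orientation holds 3 arrays, so a channel difference of constant size would cancel in the mean. The gap between orientations was not of constant size across the pairs. In D. simulans over D. melanogaster the averages were -0.30 with D. simulans RNA in channel 1 and 0.13 with it in channel 2. Whether the channel difference cancelled in full was not tested.

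**Figure D2:**
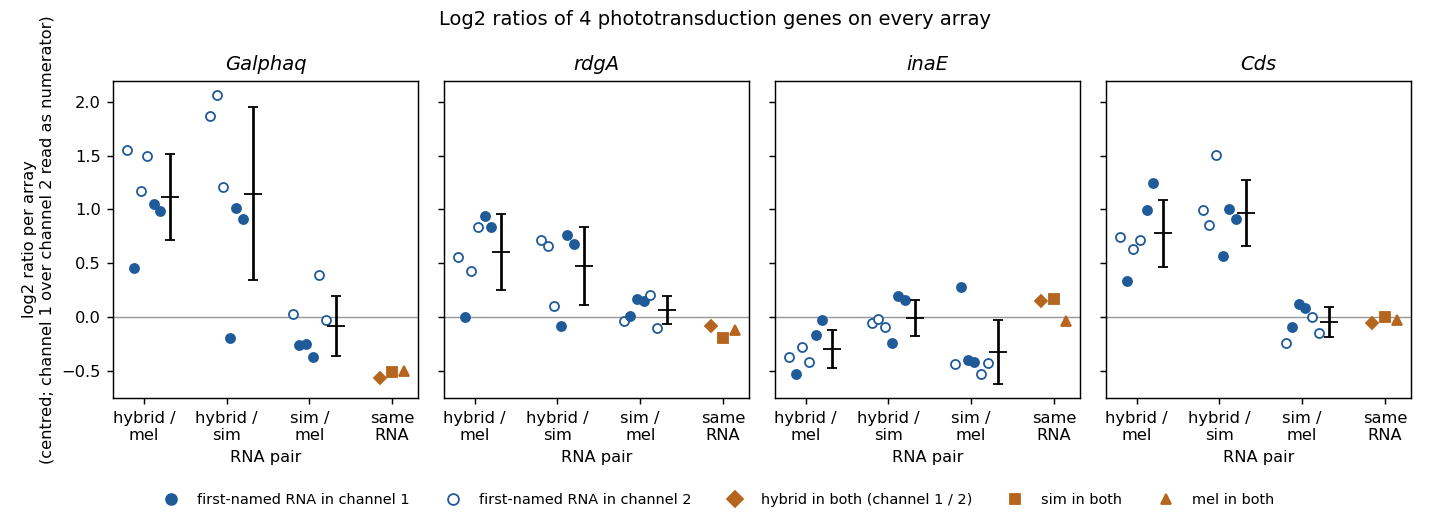
Log2 ratio of each gene (y axis, centred per array) on every array, grouped by RNA pair (x axis), with the mean of positions for Galphaq and rdgA. Filled circles have the first-named RNA in channel 1 and open circles have it in channel 2, black bars are means ± SD over 6 arrays, and brown symbols are the 3 arrays on which both channels held 1 RNA. Galphaq lies near -0.5 on the same-RNA arrays and splits by channel orientation, while Cds lies between -0.06 and 0.00 there.

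The positions of Galphaq gave like fitted values in the hybrid contrasts. Position A had 1.16 ± 0.12 and position B had 1.06 ± 0.16 in hybrid over D. melanogaster, and 1.06 ± 0.12 and 1.25 ± 0.16 in hybrid over D. simulans. Their means differed by 0.0424 over the 12 hybrid arrays, which was among the smallest of the 62 named genes with several positions (58 had a larger range, and the median range was 0.313). On single arrays the positions could lie far apart. The only negative hybrid array, replicate 4 of the pair with D. simulans, stood at 0.37 for position A and -0.76 for position B. Replicate 3 of that pair stood at 0.45 and 1.96, a gap of opposite sign that offsets the first in the means. Position B minus position A was 0.17 ± 0.86 in that pair (SD, 6 arrays). In D. simulans over D. melanogaster it was -0.35 ± 0.335, with 0 of 4 arrays above 0. Without replicate 4 of hybrid with D. simulans, Galphaq stood at 1.30 in hybrid over D. simulans.

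Cds makes CDP-diacylglycerol from phosphatidic acid, the step that supplies the resynthesis of phosphatidylinositol after each light response. Its log2 ratio ran from 0.34 to 1.24 with a median of 0.73 in hybrid over D. melanogaster, and from 0.56 to 1.504 with a median of 0.95 in hybrid over D. simulans. In D. simulans over D. melanogaster it ran from -0.24 to 0.12 with a median of -0.05. All 12 hybrid ratios of Cds, over either parent, were above all 6 ratios of D. simulans over D. melanogaster. The share of all tested genes that separate in this way was not counted. By the fit, 36.0% of all tested lay above both parents.

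In the fit, Cds was higher in the hybrid by 0.83 ± 0.09 over D. melanogaster (1.77-fold, adjusted p = 3.72e-08) and by 0.92 ± 0.09 over D. simulans (1.89-fold, adjusted p = 7.86e-09), in the adopted reading. The parental contrast was -0.10 (D. simulans over D. melanogaster, 95% interval -0.28 to 0.09, adjusted p = 0.389). On the same-RNA arrays Cds was at -0.06 with hybrid RNA, 0.00 with D. simulans RNA and -0.03 with D. melanogaster RNA. An exact sign-flip test over the 6 direct arrays gave p = 0.0312 for each hybrid comparison of Cds, the smallest value 6 arrays can give.

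The kinase gene rdgA, which removes diacylglycerol by phosphorylating it, was called higher in the hybrid as a mean of its 2 positions, with position B above position A on 11 of the 12 hybrid arrays. The mean ran from 0.00 to 0.94 with a median of 0.70 in hybrid over D. melanogaster, from -0.08 to 0.76 with a median of 0.67 in hybrid over D. simulans, and from -0.11 to 0.20 with a median of 0.08 in D. simulans over D. melanogaster. The lowest hybrid values overlapped the parental arrays. The fit gave 0.58 ± 0.10 over D. melanogaster (1.49-fold, adjusted p = 1.67e-05) and 0.49 ± 0.10 over D. simulans (1.41-fold, adjusted p = 0.000106), with 0.08 between the parents (95% interval -0.12 to 0.29, adjusted p = 0.495).

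Most of the rdgA difference came from position B. In a fit of every position by itself, and in the adopted reading, position B stood at 0.97 ± 0.15 in hybrid over D. melanogaster (adjusted p = 7.6e-06) and at 0.87 ± 0.15 in hybrid over D. simulans (adjusted p = 2.72e-05). Position A stood at 0.18 ± 0.08 (adjusted p = 0.0381) and 0.12 ± 0.08 (adjusted p = 0.189). By position A alone the hybrid would not be counted above both parents.

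Set against each other on the same arrays, position B exceeded position A by 0.74 ± 0.43 on 6 of 6 arrays of hybrid with D. melanogaster (SD). It exceeded position A by 0.80 ± 0.50 on 5 of 6 arrays of hybrid with D. simulans, and by 0.06 ± 0.57 on 3 of 5 arrays of D. simulans with D. melanogaster. The exact sign-flip p was 0.0312, 0.0625 and 0.938, and 0.188, 0.188 and 0.938 after adjustment over 6 tests. No difference between positions passed after correction. However, 0.0312 is the smallest p that 6 arrays can give, and alone it cannot pass an adjustment over 6 tests. The corrected test therefore cannot decide whether the positions differ. The range between the position means of rdgA, 0.771 over the 12 hybrid arrays, was exceeded by 7 of the 62 named genes with several positions. The reference annotation lists 11 transcripts for rdgA. Which of them each position detects is not given in the sources used here.

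The array titles carry numbers, which run from 1 to 8 and from 14 to 18. In hybrid over D. melanogaster, position B of rdgA averaged 1.43 on the 3 arrays numbered 14 to 18 and 0.52 on the 3 arrays numbered 1 to 8, without overlap (exact two-sided permutation p = 0.10, the smallest that 3 against 3 allows). In hybrid over D. simulans it averaged 1.14 on 2 arrays numbered 14 to 18 and 0.74 on 4 numbered 1 to 8, and the groups overlapped (exact p = 0.667). In this pair title number is mixed with channel. Both arrays numbered 14 to 18 held hybrid RNA in channel 1, and most numbered 1 to 8 held D. simulans RNA there. In D. simulans over D. melanogaster the means were 0.24 and -0.06, 3 arrays each, again with overlap (exact p = 0.40). Within title numbers 14 to 18 the fit of the rdgA mean gave 0.87 for hybrid over D. melanogaster and 0.71 for hybrid over D. simulans. Within 1 to 8 it gave 0.23 (adjusted p = 0.110) and 0.30 (adjusted p = 0.0322). With the title number as a random block in a fit of all 18 arrays, rdgA stood at 0.56 over D. melanogaster (adjusted p = 2.07e-05) and at 0.46 over D. simulans (adjusted p = 0.000285). What the numbers stand for is not given. For Galphaq the fits within title numbers gave 1.28 and 1.26 within 14 to 18, and 0.82 and 1.02 within 1 to 8, and for Cds 0.92 and 0.87, and 0.58 and 0.86.

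**Figure D3:**
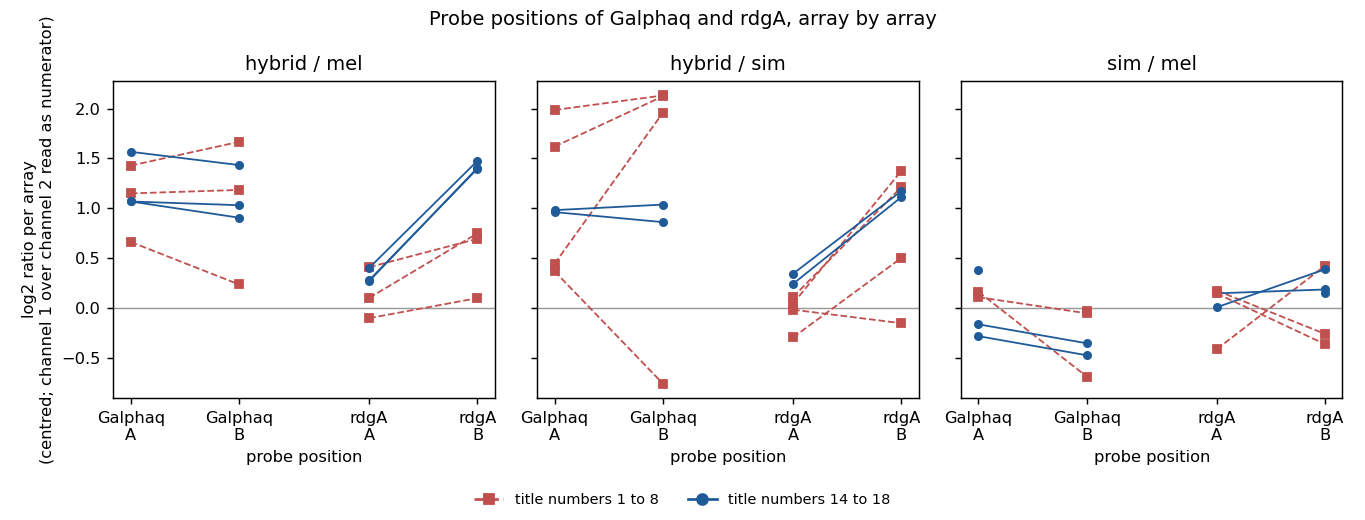
Log2 ratio (y axis, centred per array) at probe positions A and B of Galphaq and of rdgA (x axis) in the 3 RNA pairs, with a line joining the positions on an array, blue circles for title numbers 14 to 18 and red squares for 1 to 8. Position B of rdgA lies above position A on 11 of 12 hybrid arrays, and the 3 highest arrays of hybrid over D. melanogaster are those numbered 14 to 18, at 1.40 to 1.48.

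The diacylglycerol lipase gene inaE, whose product turns diacylglycerol into monoacylglycerol and a fatty acid, followed another pattern. Its log2 ratio ran from -0.53 to -0.03 with a median of -0.33 in hybrid over D. melanogaster, from -0.24 to 0.20 with a median of -0.04 in hybrid over D. simulans, and from -0.53 to 0.27 with a median of -0.43 in D. simulans over D. melanogaster. All 6 arrays of hybrid with D. melanogaster were below 0. Of the parental arrays, 5 lay between -0.53 and -0.40 and replicate 2 stood apart at 0.27.

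In the adopted reading, the fit placed inaE lower by the same amount in hybrid and D. simulans than in D. melanogaster: -0.31 ± 0.07 in hybrid over D. melanogaster (1.24-fold, adjusted p = 0.00044) and -0.31 ± 0.07 in D. simulans over D. melanogaster (1.24-fold, adjusted p = 0.00125). Hybrid over D. simulans was 0.00, with a 95% interval from -0.15 to 0.15 (adjusted p = 0.998). Without replicate 2 of the parental pair, the contrast between the parents was -0.38. With arrays scaled to a common spread it was -0.53, but scaling stretches arrays of low spread, so this size is not on the scale of the other fits. Within title numbers 14 to 18 the parental contrast was -0.44 and within 1 to 8 it was -0.23 (adjusted p = 0.154). Hybrid over D. simulans was 0.16 within 14 to 18 (adjusted p = 0.0292) and -0.12 within 1 to 8, so the level of the hybrid relative to D. simulans rests on which arrays are used. Title number and channel largely coincide in that pair. Both of its arrays numbered 14 to 18 held hybrid RNA in channel 1, and most numbered 1 to 8 held D. simulans RNA there. On the same-RNA arrays inaE stood at 0.14 with hybrid RNA, 0.17 with D. simulans RNA and -0.04 with D. melanogaster RNA. The hybrid's difference from the parental mean missed the threshold without replicate 2 of hybrid with D. melanogaster (adjusted p = 0.0616) or without replicate 4 of hybrid with D. simulans (adjusted p = 0.0652). Whether D. simulans RNA binds the inaE probe less well than D. melanogaster RNA was not tested.

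The 4 genes were next set against each other on the same arrays, where the centring cancels. Of 18 comparisons (6 pairs of genes in 3 RNA pairs), 9 had an exact sign-flip p under 0.05 and 0 passed after adjustment (lowest adjusted p = 0.0625), since 6 arrays give no p under 0.0312. With rdgA taken from position A alone 8 had such a p, and from position B alone 7. The hybrid over D. melanogaster ratio of Galphaq exceeded that of inaE by 1.42 ± 0.42 (SD, 6 of 6 arrays), that of rdgA exceeded it by 0.90 ± 0.26 (6 of 6) and that of Cds exceeded it by 1.08 ± 0.16 (6 of 6). In hybrid over D. simulans these gaps were 1.16 ± 0.77, 0.48 ± 0.25 and 0.98 ± 0.32, again on 6 of 6 arrays each. The other 3 were Galphaq over rdgA in hybrid over D. melanogaster (0.52 ± 0.35, 6 of 6), rdgA against Cds in hybrid over D. simulans (-0.50 ± 0.47, 0 of 6 above 0) and rdgA over Cds in D. simulans over D. melanogaster (0.11 ± 0.07, 6 of 6). Galphaq and Cds were not told apart in hybrid over D. melanogaster (0.34 ± 0.44, 5 of 6) or hybrid over D. simulans (0.17 ± 0.74, 4 of 6).

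The direct and indirect routes round the loop gave like values. The direct mean of hybrid over D. melanogaster was 1.12 for Galphaq, 0.60 for rdgA, -0.30 for inaE and 0.78 for Cds. The sum of hybrid over D. simulans and D. simulans over D. melanogaster was 1.06, 0.53, -0.34 and 0.92 in that order of genes. The largest gap was -0.14 for Cds.

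Other genes of the pathway came from lists of genes known in it. Of 38 further phototransduction genes listed, 1 was tested, Rh7, a rhodopsin. In the adopted reading it was higher in the hybrid by 0.79 ± 0.13 than the parental mean (adjusted p = 7.68e-06), by 0.94 than D. melanogaster and by 0.64 than D. simulans. The positions of rdgB, a phosphatidylinositol transfer protein, and laza, a lipid phosphate phosphatase, held no value on the arrays with 2 RNAs. The other listed genes, such as the major rhodopsin gene ninaE, the phospholipase gene norpA and the channel gene trp, were not analysed here. Likewise 0 of 29 eye and photoreceptor markers could be tested, so the photoreceptor content of the pools was not measured.

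Of the lipid enzymes around the diacylglycerol and phosphoinositide cycle, 16 of 45 listed were tested. In the adopted reading, 9 were higher than the parental mean in the hybrid, 5 were lower and 2 did not pass, a share near the 85.3% of all tested. Their median was 0.24, against 0.02 over all tested genes. The highest was mdy, the diacylglycerol acyltransferase gene of fat storage, at 0.93 ± 0.10, followed by bbc, whose product joins diacylglycerol to a phospholipid head group, at 0.68 ± 0.10. Genes of acyltransferases on the way to phosphatidic acid split. The value of mino was higher by 0.44 ± 0.05 and that of Agpat2 by 0.18 ± 0.07, while Agpat1 stood at -0.99 ± 0.07.

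Genes that act on inositol lipids and inositol phosphates split as well. Of the transfer proteins, vib stood at 0.29 ± 0.04 and rdgBbeta at -0.70 ± 0.08. Of the inositol 5-phosphatases, 5PtaseI stood at 0.27 ± 0.10 and Ocrl at -0.59 ± 0.04. The kinase gene Pi3K59F was higher, at 0.44 ± 0.07, and the kinase genes Pi3K68D and Pi4KIIalpha were lower, at -0.38 ± 0.07 and -0.30 ± 0.05. The phospholipase C gene Plc21C, at 0.20 ± 0.10 (adjusted p = 0.0640), and the kinase gene fwd, at -0.06 ± 0.06 (adjusted p = 0.357), did not pass. The remaining higher genes were Pisd, a phosphatidylserine decarboxylase, at 0.43 ± 0.06, and wun, a lipid phosphate phosphatase, at 0.28 ± 0.06. The acyltransferases, the transfer proteins, the 5-phosphatases and the phosphatidylinositol 3-kinases each held values on both sides of 0, as the plot of phototransduction and related genes shows.

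Among other G protein genes, 4 of 19 listed were tested and all 4 differed from the parental mean, 1 higher and 3 lower, with a median of -1.09. A difference from the parental mean was called for 85.3% of all tested. The G alpha gene cta, which acts in cell shape change, stood at -1.15 ± 0.12, ric8a, which encodes a chaperone of G alpha subunits, at -1.12 ± 0.08, and Axn, which carries a domain of the G protein regulator type, at -1.05 ± 0.06. The regulator gene loco stood at 0.18 ± 0.05. In the adopted reading Galphaq and cta, the tested G alpha genes, therefore stood on opposite sides of the parents, at 1.13 and -1.15.

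**Figure D4:**
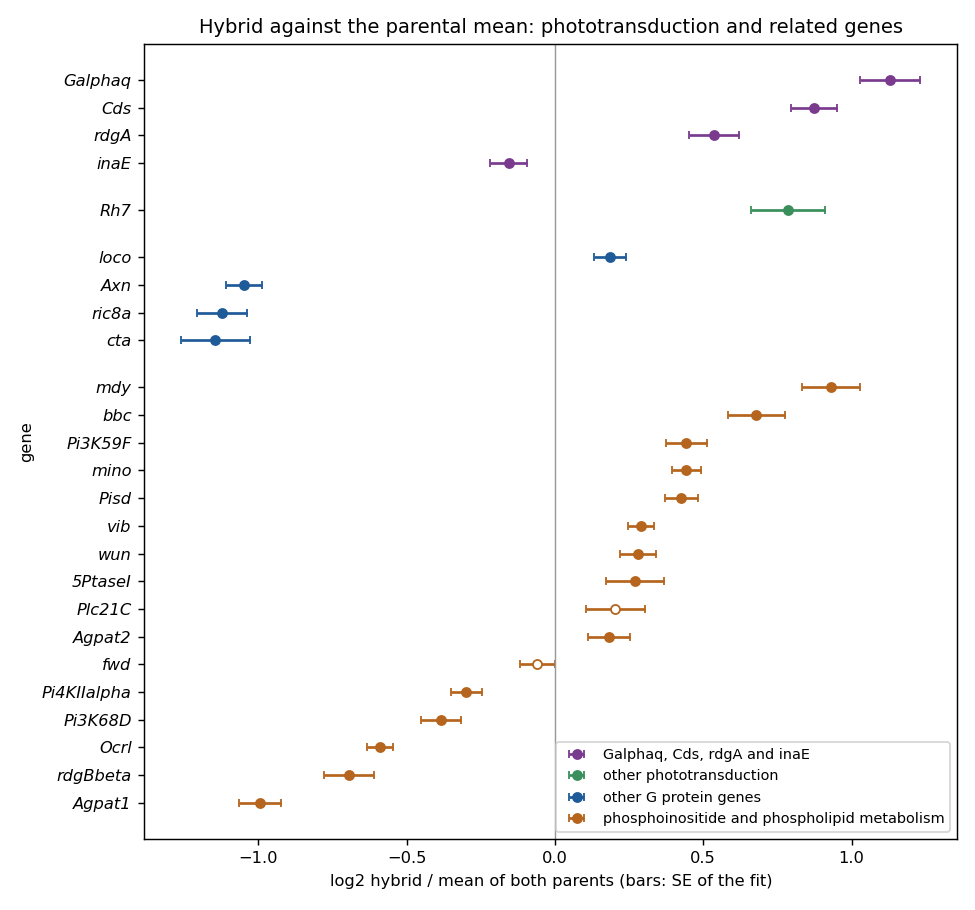
Fitted log2 difference of the hybrid from the mean of both parents (x axis; bars are SE of the fit) for the 4 genes and the tested genes of 3 pathway lists (y axis), in the adopted reading; open circles did not pass an adjusted p of 0.05. Galphaq is the highest of the 25 genes at 1.13 and cta the lowest at -1.15.

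Markers of tissues that make up a whole female moved with these contrasts. Against the parental mean, 7 of 7 tested fat body markers were higher in the hybrid (median 1.39), as were 4 of 4 muscle markers (median 1.07) and 4 of 6 neuron markers (median 0.36), while 4 of 5 ovary and germline markers were lower (median -0.76), all in the adopted reading. That the germline markers were lower is no separate result, because the reading was adopted with these markers in view. Of all tested genes, 43.0% were higher and 42.3% lower in this contrast. Galphaq at 1.13, Cds at 0.87 and rdgA at 0.54 lay on the side of fat body, muscle and neuron markers, in either reading. They lay opposite the germline markers. The small inaE value, at -0.16, shared only its sign with the germline markers, in either reading. It missed the threshold in several settings, and the fit gave 0.00 for inaE in hybrid over D. simulans (adjusted p = 0.998). Among the neuron markers slo stood at 1.13, Sh at 0.82, fne at 0.47 and Shab at 0.25, with futsch at -0.04 and nSyb at -0.22 not passing. The part of tissue makeup in the results of the 4 genes was not tested.

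The named genes whose ratios over the 18 arrays were most like each gene were found by the root mean square difference in log2 units. For Galphaq they were zfh2, a zinc finger and homeodomain factor (0.325), the autophagy gene Atg8a (0.362) and DopEcR, a receptor for dopamine and ecdysone (0.381), against a median of 1.13 over all named genes. For rdgA they were MESK2 (0.196), the synapse-associated Sap47 (0.206) and oys, a lysophospholipid acyltransferase gene (0.210, on 17 arrays), with a median of 0.734. For inaE they were blo (0.198, on 17 arrays), CG8079 (0.223) and the tyrosine kinase gene Ack (0.226), with a median of 0.664. For Cds they were Gclm, the modifier subunit of glutamate-cysteine ligase (0.208), the clock repressor gene cwo (0.238) and the peptidase gene Nep2 (0.242), with a median of 0.878. None of these 12 genes was a listed pathway gene.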

How the data were processed

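Ratios of 2 channels were measured on 21 spotted cDNA arrays. The authors deposited linear ratios, 1 for each position on each array. How spots were scanned, corrected, normalized or filtered is not stated in the labels, and signal over background is unknown, so the number of arrays limits the precision. Deposited median ratios ran from 0.853 to 1.11. Positions with 1 symbol in the platform annotation (1943 of 6101) were named through a RefSeq gene table of Release 6 plus ISO1 MT. Ratios were put on the log2 scale, centred on each array's median and averaged over the positions of a gene. Units with at least 4 of 6 values in each comparison were fitted on 18 arrays with limma 3.58.1 in R 4.3.3, with coefficients for hybrid and D. simulans RNA and a channel term. Tests were two-sided, moderated, and Benjamini-Hochberg adjusted over 4753 units. Single comparisons used exact sign-flip permutations of arrays in Python 3.11.15. The script was tested on simulated data. Missing values (1.43%) were left out of each unit's fit. Named were the 4 genes, the tested genes of 3 pathway lists and, for each of the 4, the 3 closest genes on at least 16 arrays. Replicate numbers follow the order of deposition. The genes and lists were chosen with earlier results of these data known. Alternatives covered centring, scaling, the channel term, title numbers, filters, single positions, a minimum fold, direct arrays and leaving out each array.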

Additional observations from a re-analysis of the deposited data

Results flagged for a closer look

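A single array lay far from the other arrays of its pair in 2 results, and both concern replicate 2 of D. simulans with D. melanogaster, the array that correlated least with the rest of its pair (0.481). For inaE it stood at 0.274 in D. simulans over D. melanogaster, with the next array at -0.401. For position A of rdgA it stood at -0.411, with the next array at 0.00894. Chance alone marks about 1 in 20 groups in this way. Without that array the parental contrast of inaE was -0.38 and still passed the threshold. Position A of rdgA was not refitted without it.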

How the results depend on the processing

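Among 28 other settings of the fit, Galphaq, rdgA and Cds lay above both parents in 26, and no called value of the 4 genes changed sign. The exceptions were title numbers 1 to 8, where rdgA over D. melanogaster was 0.2339, and the requirement of 1.5-fold, which rdgA missed at 0.578, 0.493 and 0.536 against D. melanogaster, D. simulans and the parental mean, and inaE at -0.313 (hybrid over D. melanogaster), -0.3132 (between the parents) and -0.156. By position A alone, rdgA over D. simulans was 0.117. The small difference of inaE from the parental mean was the least stable: it missed the threshold with arrays scaled to a common spread (-0.114), with title numbers 1 to 8 (-0.228) or 14 to 18 (-0.0614), and without replicate 2 of hybrid with D. melanogaster (-0.1265, adjusted p = 0.0616) or replicate 4 of hybrid with D. simulans (-0.124, adjusted p = 0.0652), within -0.176 to -0.124 over arrays left out. Between the parents inaE was -0.225 with title numbers 1 to 8. With 14 to 18, rdgA between the parents (0.167) and inaE in hybrid over D. simulans (0.157) passed. The exact sign-flip test, which 1 array of opposite sign takes past 0.05, gave 0.0625 for Galphaq (1.14) and rdgA (0.472) in hybrid over D. simulans and for inaE between the parents (-0.325). Requiring 1.5-fold cut the counts over all genes to 530 between the parents, 2643 and 2464 for hybrid over D. melanogaster and D. simulans, 2559 for the parental mean and 2097 outside both parents. With arrays scaled to a common spread, the differences from the parental mean were 0.82 for Galphaq, 0.65 for Cds and 0.39 for rdgA, smaller than in the main fit. Without centring, the median gene shifted by -0.105, -0.125 and -0.117 in the hybrid contrasts with D. melanogaster, D. simulans and the parental mean. Causes were not tested. No paired analysis was possible because replicate numbers follow the order of deposition and pair no arrays. Taking the title number as a random block instead changed no call of the 4 genes. Signal over background is unknown and limits what low ratios can show.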
